A study of Rattus norvegicus with 6 samples.

Results

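The genes described here build, fold, ship and inspect the proteins that enter the endoplasmic reticulum (ER) of rat pancreas. They were chosen by name as a list of 53 genes in 4 classes, and 52 of them were matched by gene name among the 34001 genes of the table. These are 16 chaperones and disulfide isomerases, 16 genes of the translocon and signal peptidase, 10 of ER-Golgi transport, and 10 of degradation and unfolded protein sensing. Pdia2 was not analysed here. All 52 matched genes passed the filter on low values, a mean of at least 1 TPM over the 6 libraries.

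RNA came from pancreatic tissue of 6 rats of the outbred Sprague-Dawley strain, divided over 3 groups with 2 libraries each, and taken at 24 h. The part of the gland sampled is not stated. Control rats had a laparotomy in which the gland was turned with swabs, and 1 ml of saline in the tail vein. Rats with traumatic pancreatitis (TP) had the gland squeezed by an impactor over 3 cm2 at 10 kg, with 1 ml of saline. The TP+hucMSC-Exs group had the same crush and received hucMSC-Exs, vesicles shed by human umbilical cord mesenchymal stem cells, dosed at 10 μg per 100 g through the same vein. The labels used here state neither age nor sex. Below, crush alone names the TP group, and treated or with exosomes names the TP+hucMSC-Exs group. The values are TPM, transcript abundances per gene length that sum to 1000000 in each library. TPM keep no sequencing depth, so depth is unknown and no counting error can be given. Fold values are ratios of TPM to the mean of the controls. With 2 libraries per group, the smallest two-sided p of an exact permutation test is 0.33.

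Acinar cells of the pancreas make more secreted protein than almost any other cell, and nearly all of it passes through the ER. A signal sequence is read by the signal recognition particle, the chain is threaded through the Sec61 channel, the signal is cut off by signal peptidase, and chaperones with disulfide isomerases fold the product. Coated vesicles then carry it to the Golgi, KDEL receptors return escaped ER residents, and misfolded chains are drawn back out and degraded. The sensors Ern1 (IRE1), Atf6 and PERK detect unfolded protein. IRE1 splices the mRNA of Xbp1, a transcription factor that acinar cells need, and gene-level TPM do not separate its spliced from its unspliced form.

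Sequences that link these genes lie in their promoters. The ER stress response element (ERSE), which is CCAAT followed after 9 bases by CCACG, is known as a site of ATF6 and XBP1 with the factor NF-Y. ERSE-II, which is ATTGG followed after 1 base by CCACG, is a related site. Both strands were searched from 250 bases before to 50 after each gene's start in RefSeq promoter sequences of the rat build GRCr8, which held an entry for 41 of the 52 genes. Pdia3, Pdia6, Erp27, Manf, Sec61a1, Sec24d, Tmed11, Kdelr2, Derl1, Ern1 and Atf6 had none. An ERSE was found in 8 of the 41 promoters (19.5%), against 22 of 33469 promoters of all genes (0.0657%). The 8 genes are Hspa5, Hsp90b1, Calr, Canx, Creld2, Dnajc3, Xbp1 and Derl3. ERSE-II was found in 3 of the 41 (7.32%), Hyou1, Dnajb11 and Herpud1, against 17 of 33469 (0.0508%). No promoter of these genes held both. The 33469 promoters include the 41, and the list was chosen by name for ER functions, so the shares describe the list and were not tested. Such a match describes letters in a window and is not a measured binding site. The stretches below, 5′ to 3′ on the gene's own strand with the element in capitals, belong to genes whose values are described further on. In Calr, Derl3 and Hyou1 the element lies on the opposite strand, and its capitals therefore read CGTGG first.
Hspa5, chr3:38452943-38453015, plus strand: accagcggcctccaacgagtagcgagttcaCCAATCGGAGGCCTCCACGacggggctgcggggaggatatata
Calr, chr19:40213117-40213183, plus strand: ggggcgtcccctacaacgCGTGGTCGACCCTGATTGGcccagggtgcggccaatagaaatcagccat
Hsp90b1, chr7:23012421-23012499, minus strand, the first of 2 elements: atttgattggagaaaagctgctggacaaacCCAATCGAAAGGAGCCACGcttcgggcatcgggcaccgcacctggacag
Xbp1, chr14:84604528-84604606, plus strand: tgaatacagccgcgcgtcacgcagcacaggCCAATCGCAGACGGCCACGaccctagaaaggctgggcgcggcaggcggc
Derl3, chr20:12766571-12766649, minus strand: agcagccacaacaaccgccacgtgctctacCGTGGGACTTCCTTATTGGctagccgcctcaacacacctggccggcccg
Hyou1, chr8:53602764-53602834, plus strand, the second of 2 elements: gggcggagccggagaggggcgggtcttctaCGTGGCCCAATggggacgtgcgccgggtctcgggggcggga
Herpud1, chr19:10614791-10614861, minus strand: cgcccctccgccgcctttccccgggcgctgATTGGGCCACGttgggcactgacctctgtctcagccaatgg
In Hspa5 the element begins 43 bases before the gene start, in Xbp1 65, in Herpud1 124, in Derl3 154 and in Calr 232.

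The libraries differ in makeup in a way that touches every value below. The 27 matched digestive enzyme genes took 86.7% and 82.9% of TPM in the controls, 80.6% in TP replicate 1, 21.6% in TP replicate 2, and 67.6% and 61.8% with exosomes. Since TPM sum to a constant, the other genes together take more where the enzymes take less, and the median of 11477 genes differed from the control mean by 3.00 (log2) in TP replicate 2, by 0.97 and 1.22 with exosomes and by 0.00 in TP replicate 1. Markers of other cell types were high in TP replicate 2. All 12 fat cell markers were at 1 TPM or more there and summed to 6999 TPM, against 26.2 to 54.3 TPM elsewhere. Its 12 macrophage markers summed to 5188 TPM (25.3 to 828 elsewhere) and its 9 fibroblast markers to 4835 TPM (39.1 to 170 elsewhere). The 7 matched genes of the skeletal muscle list summed to 3482 TPM there, of which Ca3 alone gave 3475 TPM. Only 3 were above 1 TPM, the others being Acta1 at 3.28 TPM and Tnnt3 at 3.0 TPM. The sum thus rests on 1 gene and does not show that muscle was sampled. Plasma cells are rich in ER as well. Their 8 matched markers summed to 131 TPM in TP replicate 2, to 56.4 TPM in control replicate 2 and to 3.54 to 34.2 TPM in the other 4, with Jchain at 0 in TP replicate 1. The 10 duct cell markers summed to 82.4 and 83.9 TPM in the controls, 136 and 638 TPM after crush alone, and 827 and 1065 TPM with exosomes. Spp1 gave 558 TPM of the sum in TP replicate 2, where the keratins Krt8 (35.6 TPM) and Krt18 (23.4 TPM) were near the controls (32.2 and 34.9 TPM, and 24.8 and 25.55 TPM), while with exosomes they stood at 412 and 519 TPM and at 209 and 255 TPM. The 10 islet markers summed to 301 to 2938 TPM over the 6 libraries. The part of these cells in the results was not tested, and in bulk tissue fewer cells of a type and less RNA per cell cannot be told apart. Values are therefore also given per 1000000 TPM of all transcripts other than the digestive enzymes, called the non-enzyme scale.

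As a whole, the machinery was a small share of the RNA and differed most in 1 library. The 52 genes summed to 2191 and 2482 TPM in the controls (mean 2336 ± 206, SD, n = 2), 2644 and 9462 TPM after crush alone (6053 ± 4821), and 3294 and 3539 TPM with exosomes (3417 ± 173). TP replicate 2 was far above all others, and TP replicate 1 was near the controls. Both treated libraries lay above both controls and between the TP libraries. The exact two-sided permutation p of the sum was 0.33 for either injured group against the controls and 1 between the injured groups. The order was another one on the non-enzyme scale, where the sum was 16484 and 14543 in the controls, 13644 and 12067 after crush alone, and 10177 and 9268 with exosomes, the lowest of the 6. Set beside the transcripts of the cargo, there were 2.53 and 2.99 TPM of machinery per 1000 TPM of digestive enzymes in the controls, 3.28 and 43.8 after crush alone, and 4.87 and 5.73 in the treated ones.

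**Figure D1:**
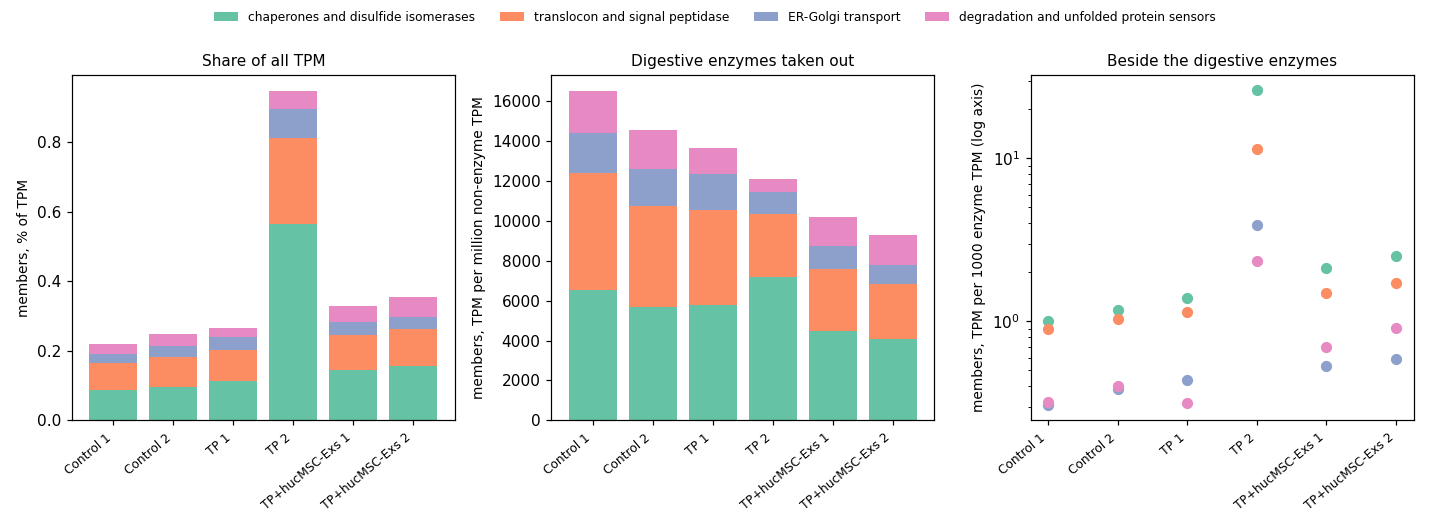
Summed values of the 4 gene classes in each of the 6 libraries, as a percentage of all TPM (left, stacked bars), per 1000000 non-enzyme TPM (middle, stacked bars) and per 1000 TPM of digestive enzymes (right, points on a log axis). TP 2 is highest in the left and right panels, at 0.946% and, for the chaperone class, 26.1 TPM per 1000, while both treated libraries are lowest in the middle panel.

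The chaperones and disulfide isomerases were the most abundant class, and the one that stood highest in TP replicate 2. On TPM both treated libraries were above both controls for 16 of the 16 genes, against 86.9% of all genes. On the non-enzyme scale they were below both controls for 12, against 18.6% of all genes, and above for 3, against 40.8%. Hspa5, the ER chaperone BiP, stood at 60.6 and 73.95 TPM in the controls, 70.6 and 605 TPM after crush alone, and 126 and 129 TPM with exosomes. On TPM, TP replicate 1 lay between the controls, and the treated libraries lay at about the same level as each other, above both controls. On the non-enzyme scale Hspa5 stood at 456 and 433 in the controls, 364 and 771 after crush alone, and 388 and 337 with exosomes. Both treated libraries were thus below both controls on that scale. Its promoter carries the ERSE printed above. Calr, the calcium-binding lectin chaperone calreticulin, stood at 42.7 and 57.3 TPM, then at 74.3 and 1387 TPM, and at 158 and 186 TPM under treatment. It was above both controls in every injured library, and its difference of TP against Control, 2.69 ± 1.22 (log2 fold change with SE), was the largest of the 52 genes. Its unadjusted p in limma was 0.0271, and with Benjamini-Hochberg adjustment it did not pass (adjusted p = 0.555).

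Other lectin chaperones and isomerases had the same shape. Hsp90b1, the ER member of the HSP90 family (GRP94), stood at 23.9 and 29.8 TPM in the controls, 29.05 and 437 TPM after crush alone and 52.4 and 59.7 TPM with exosomes. Pdia4, a disulfide isomerase, stood at 7.02 and 10.6 TPM, at 10.6 and 239 TPM, and at 23.9 and 29.7 TPM under treatment. Pdia3, which works with calreticulin and calnexin on glycoproteins, stood at 22.8 and 28.99 TPM, at 34.7 and 452 TPM, and at 65.8 and 81.2 TPM. These genes were 16.3-fold, 27.1-fold and 17.5-fold above the control mean in TP replicate 2, where the median gene was 3.00 higher on the log2 scale. Canx, the membrane lectin calnexin, and Pdia6, another isomerase, were 12.5-fold and 11.3-fold above it. P4hb, the founding protein disulfide isomerase, was more abundant, at 174 and 200.3 TPM in the controls, and was 4.94-fold above them (926 TPM) in TP replicate 2.

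The next genes are co-chaperones and small stress-induced proteins. Hyou1, a nucleotide exchange factor for BiP, stood at 11.75 and 14.8 TPM in the controls, 11.2 and 94.1 TPM after crush alone, and 20.3 and 19.96 TPM with exosomes. Sdf2l1, a partner of BiP, stood at 21.45 and 21.9 TPM, at 19.3 and 179 TPM, and at 26.99 and 31.6 TPM. Both were below both controls in TP replicate 1. So was Dnajb9 (ERdj4), a J-domain protein induced through IRE1 and XBP1, at 1.91 TPM against 2.69 and 3.51 TPM, with 10.9 TPM in TP replicate 2 and 4.90 and 5.82 TPM under treatment. Dnajb11, Dnajc3, Manf and Creld2 were between 2.77-fold (Dnajc3) and 8.34-fold (Dnajb11) above the controls in TP replicate 2, and between 1.30-fold (Dnajc3) and 2.08-fold (Dnajb11) in the mean of the treated libraries.

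Erp27 was low where most others were high. It encodes a pancreas-rich member of the disulfide isomerase family without a catalytic cysteine pair, and stood at 347 and 336 TPM in the controls, 455 and 113 TPM after crush alone, and 411 and 415 TPM with exosomes. It was lowest in TP replicate 2 and highest in TP replicate 1, and the other 4 libraries lay close together. Among all genes of the table by TPM it ranked at 90 and 117 in the controls, 101 in TP replicate 1 and 975 in TP replicate 2. On the non-enzyme scale it stood at 0.0631 of its control mean in TP replicate 2, and 0.514 of it with exosomes. The 6 acinar transcription factors summed to 40.4 TPM in the same library and to 74.0 to 115 TPM in the others. Bhlha15 (MIST1), which sets up the secretory apparatus of acinar cells, stood at 12.3 TPM in TP replicate 2 and at 28.9 to 37.1 TPM in the other 5.

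**Figure D2:**
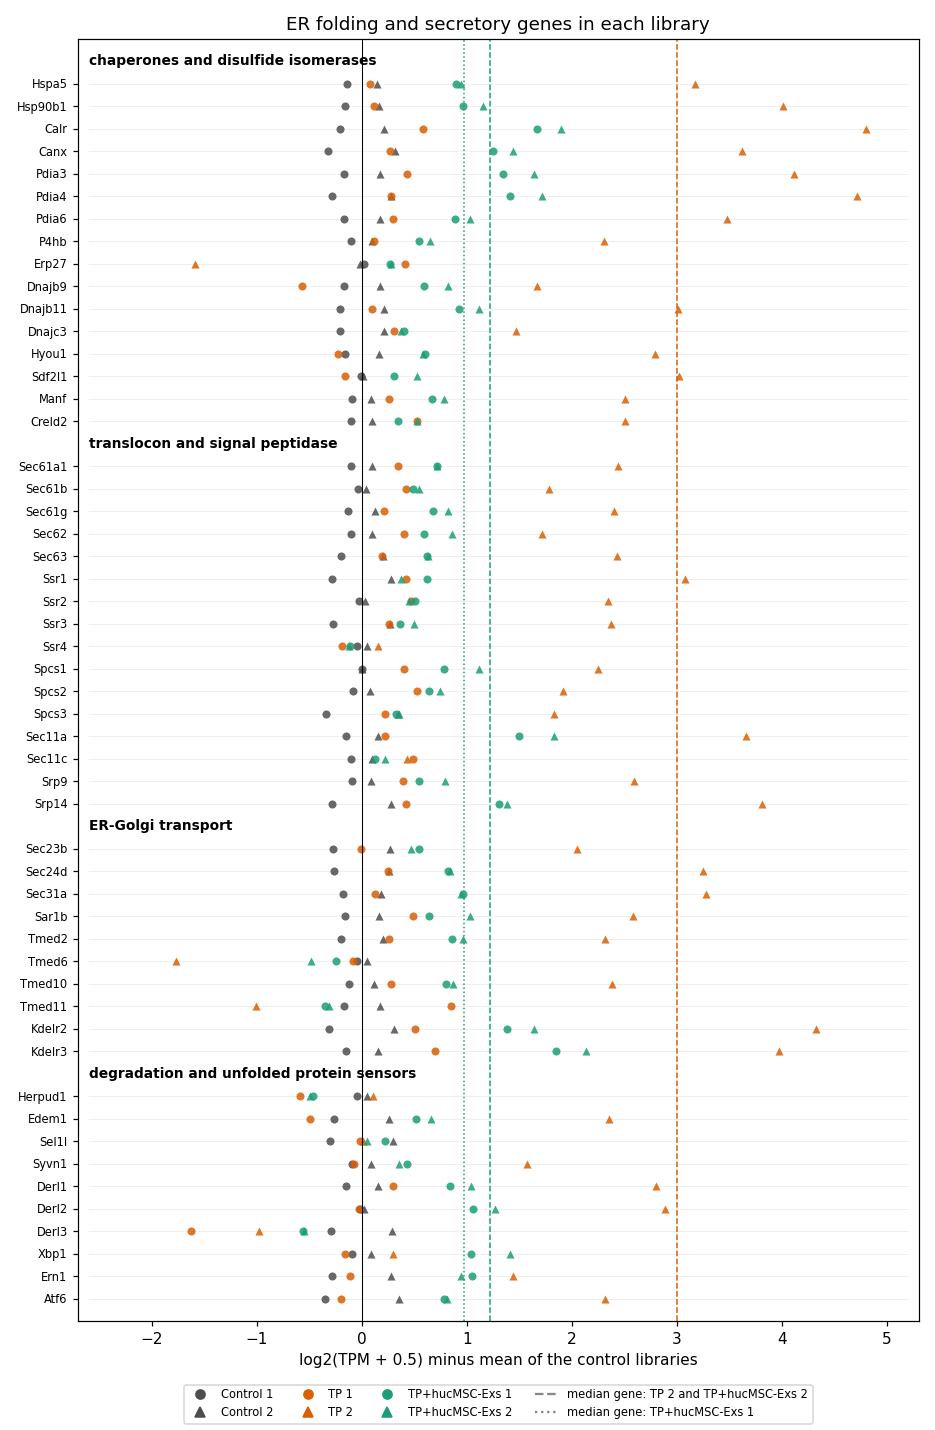
Each of the 52 genes in each library, as log2(TPM + 0.5) minus the mean of the 2 control libraries, grouped by class; circles are replicate 1 and triangles replicate 2. Dashed and dotted lines mark the median of 11477 genes in TP 2 (3.00), TP+hucMSC-Exs 1 (0.97) and TP+hucMSC-Exs 2 (1.22); Erp27, Tmed6, Tmed11 and Derl3 are the genes left of 0 in TP 2.

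The translocon and signal peptidase genes lay nearer to the controls than the chaperones did in TP replicate 2. Sec61b and Sec61g, the small subunits of the protein-conducting channel, stood at 117 and 125 TPM and at 74.05 and 89.0 TPM in the controls. They stood at 162 and 417 TPM and at 94.1 and 431 TPM after crush alone, and at 170.5 and 176 TPM and 131 and 144 TPM under treatment. For both, every injured library was above both controls on TPM. On the non-enzyme scale both treated libraries were below both controls for these 2 genes. The same held for 14 of the 16 genes of the class, against 18.6% of all genes, and 1 was above, against 40.8%. Sec61a1, the channel itself, stood at 33.9 and 39.2 TPM, at 46.4 and 199.7 TPM, and at 60.4 in both treated libraries. Both libraries of the TP group were above both controls for 12 of these 16 genes, against 23.1% of all 11477 genes, and on the non-enzyme scale for 0 of 16, against 9.39% of all genes.

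The catalytic subunits of signal peptidase, Sec11a and Sec11c, had unlike patterns. Sec11a stood at 6.40 and 8.01 TPM in the controls, 8.45 and 96.2 TPM after crush alone, and 21.1 and 26.7 TPM with exosomes. Sec11c stood at 55.7 and 63.85 TPM, at 84.1 and 80.5 TPM, and at 65.5 and 69.4 TPM. Sec11a was thus 13.4-fold and Sec11c 1.35-fold above the controls in TP replicate 2, and 3.32-fold and 1.13-fold in the mean of the treated libraries. On TPM, Sec11c was higher in both TP libraries than in both treated ones. On the non-enzyme scale these groups overlapped for Sec11c, at 434 and 103 after crush alone and 202 and 182 with exosomes. There Sec11c was at 0.259 of the control mean in TP replicate 2, and Sec11a at 2.58-fold of it. Whether the genes differ in their response was not tested.

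Ssr4, the delta subunit of the translocon-associated (TRAP) complex, was about as abundant as Erp27 in the controls and differed little between libraries on TPM. It stood at 347 and 374 TPM in the controls, 316 and 399 TPM after crush alone, and 333 and 331 TPM with exosomes, within 1.26-fold from the lower to the higher TP library. On the non-enzyme scale it stood at 2610 and 2192, then 1629 and 509, and 1030 and 867, every injured library being below both controls. The other TRAP subunits, Ssr1, Ssr2 and Ssr3, were 8.55-fold, 5.09-fold and 5.29-fold above the control mean in TP replicate 2, where Ssr4 was 1.11-fold above it. Its log2 difference relative to the median gene was -1.52 for TP against Control and -1.21 for TP+hucMSC-Exs against Control. The value for TP against Control was -0.19 without TP replicate 2. The accessory channel proteins Sec62 and Sec63, the signal peptidase subunits Spcs1, Spcs2 and Spcs3 and the signal recognition particle protein Srp9 were 3.38-fold (Sec62) to 6.52-fold (Srp9) above the control mean in TP replicate 2. Srp14, the partner of Srp9, reached 14.8-fold, from 4.83 and 7.35 TPM in the controls to 89.96 TPM, with 8.18 TPM in TP replicate 1 and 15.6 and 16.3 TPM under treatment.

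Among ER-Golgi transport genes, the receptors that fetch ER residents back were highest relative to controls. Kdelr2 stood at 4.10 and 6.53 TPM in the controls, 7.60 and 113 TPM after crush alone, and 14.3 and 17.3 TPM with exosomes. Kdelr3 stood at 4.8 and 6.0 TPM, at 9.01 and 91.6 TPM, and at 20.7 and 25.2 TPM. For both genes every injured library was above both controls, on TPM and on the non-enzyme scale. The difference of TP+hucMSC-Exs against Control was 1.99 ± 1.41 for Kdelr3 (log2 fold change with SE, limma adjusted p = 0.8), the largest of the 52 genes in that comparison, and 4.25-fold as a ratio of means.

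The coat proteins had the common pattern. Sec23b, Sec24d and Sec31a, which form the COPII coat, and Sar1b, the GTPase that starts it, were 4.29-fold (Sec23b) to 10.5-fold (Sec31a) above the controls in TP replicate 2. In the mean of the treated libraries they were 1.43-fold (Sec23b) to 2.01-fold (Sec31a) above them. On the non-enzyme scale that mean was 0.624 (Sec23b) to 0.874 (Sec31a) of the control mean. Tmed2 and Tmed10, cargo receptors of the p24 family, were 5.00-fold and 5.25-fold above the controls in TP replicate 2.

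Tmed6 and Tmed11, p24 family members of narrow expression, had another pattern than Tmed2 and Tmed10. Tmed6 stood at 125 and 134 TPM in the controls, 122 and 37.6 TPM after crush alone, and 109 and 92.9 TPM with exosomes, so that every injured library was below both controls. Tmed11 stood at 44.7 and 57.0 TPM, at 91.2 and 24.9 TPM, and at 39.5 and 40.65 TPM. It was highest in TP replicate 1 and lowest in TP replicate 2, and both treated libraries were below both controls. With the enzymes taken out, Tmed6 and Tmed11 stood at 0.336 and 0.341 of the control mean in the treated group, against 0.811 for Tmed2 and 0.769 for Tmed10.

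The degradation and sensor genes stood lowest beside other genes in TP replicate 2. The distance from the control mean was smaller than that of the median gene for all 10, and larger for 9 of 16 chaperones. In TP replicate 1, 5 of the 10 lay below both controls (Herpud1, Edem1, Derl2, Derl3 and Xbp1), as did 5 of the other 42 genes (Dnajb9, Hyou1, Sdf2l1, Ssr4 and Tmed6). Of all 11477 genes, 17.1% did so.

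Derl3, a derlin of secretory cells that takes part in drawing misfolded glycoproteins out of the ER, stood at 8.51 and 13 TPM in the controls, 3.06 and 5.08 TPM after crush alone, and 6.99 and 7.04 TPM with exosomes. All 4 injured libraries were below both controls, and both treated libraries were above both TP libraries. Its log2 fold change of TP against Control was -1.31 ± 1.43 (SE, limma adjusted p = 0.555), and -2.80 relative to the median gene. Without TP replicate 2 both values were -1.63. The related Derl1 and Derl2 were at 5.86 and 7.31 TPM and at 5.01 and 5.18 TPM in the controls, and at 48.7 and 41.1 TPM in TP replicate 2. Derl3 carries the ERSE printed above and was at 0.472 of the control mean in TP replicate 2. The other genes with an ERSE ranged widely in that library, where the median gene was 3.00 higher on the log2 scale. Calr was at 27.7-fold of the control mean, Hsp90b1 at 16.3-fold, Canx at 12.5-fold and Hspa5 at 8.99-fold. Creld2 was at 5.8-fold, Dnajc3 at 2.77-fold and Xbp1 at 1.23-fold.

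Herpud1, a membrane scaffold of ER-associated degradation that unfolded protein induces, stood at 63.8 and 68.2 TPM in the controls, 43.7 and 71.4 TPM after crush alone, and 47.8 and 46.7 TPM with exosomes. It was below both controls in 3 of 4 injured libraries on TPM, and in all 4 on the non-enzyme scale. There it stood at 480 and 400 in the controls, 225 and 91.1 after crush alone, and 148 and 122 with exosomes. Sel1l, the adaptor of the ligase Syvn1 (HRD1), stood at 33.7 and 51.3 TPM, at 41.06 and 41.9 TPM, and at 48.3 and 42.95 TPM. On TPM the controls overlap both other groups. On the non-enzyme scale Sel1l stood at 253 and 300 in the controls, 212 and 53.4 after crush alone, and 149 and 112 with exosomes, so that all 4 injured libraries were below both controls. Syvn1 stood at 6.09 and 6.94 TPM, at 6.17 and 20.3 TPM, and at 8.93 and 8.43 TPM. Its values on the non-enzyme scale were 45.8 and 40.7, then 31.8 and 25.9, and 27.6 and 22.1, again with all 4 injured libraries below both controls. Edem1, a mannosidase-like protein that marks glycoproteins for removal, stood at 10.8 and 15.75 TPM, at 9.17 and 68.7 TPM, and at 18.9 and 20.9 TPM. With the enzymes taken out, it stood at 87.6 in TP replicate 2, between the controls (81.5 and 92.3).

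Xbp1 was highest with exosomes. It stood at 141 and 159 TPM in the controls, 134 and 185 TPM after crush alone, and 309 and 399 TPM with exosomes. Both treated libraries were above all 4 others, and it was the 1 gene of the 52 with its highest TPM in a treated library. Of all genes, 1.59% were highest in treated replicate 1 and 4.96% in treated replicate 2, so this count was no higher than the background. Its log2 fold change of TP+hucMSC-Exs against TP was 1.16 ± 1.17 (SE) and 1.53 relative to the median gene, the largest of the 52 on both counts, and it did not pass (limma adjusted p = 1). Without TP replicate 2 the log2 fold change was 1.39, and only 0.29 relative to the median gene. Against Control the log2 fold change was 1.23 ± 1.17 (SE, limma adjusted p = 0.8), or 2.36-fold as a ratio of means, and 0.13 relative to the median gene. Whether Xbp1 stood out therefore depended on the scale and, against TP, on TP replicate 2. On the non-enzyme scale Xbp1 stood at 1062 and 931 in the controls, 692 and 235 after crush alone, and 955 and 1046 with exosomes, which lay within the controls' range. By rank among all genes it was at 163 and 175 in the controls, 190 and 628 after crush alone, and 168 and 159 with exosomes.

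The sensors themselves were low. Ern1 stood at 1.33 and 2.19 TPM in the controls, 1.55 and 5.50 TPM after crush alone, and 4.09 and 3.76 TPM with exosomes, and Atf6 at 2.35 and 4.15 TPM, at 2.68 and 17.7 TPM, and at 5.76 and 5.88 TPM. On the non-enzyme scale the genes higher in both treated libraries than in both TP libraries were Xbp1, Ern1, Derl3 and Dnajb9, 4 of 52 (7.69%) against 9.79% of all genes, a share no higher than the background.

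**Figure D3:**
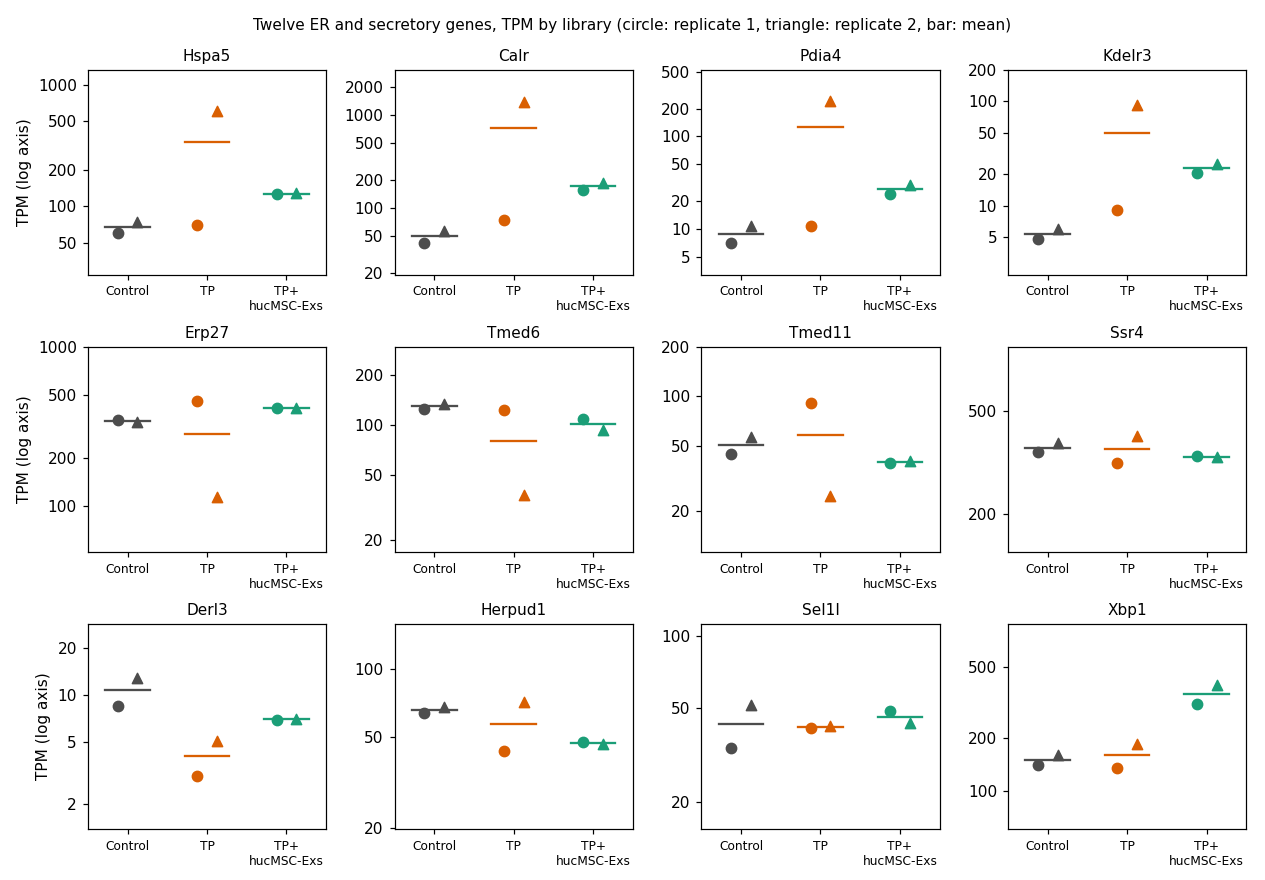
TPM (log axis) of 12 genes in the control, TP and TP+hucMSC-Exs libraries; circles are replicate 1, triangles replicate 2 and bars group means, with n = 2 per group. Hspa5, Calr, Pdia4 and Kdelr3 peak in TP replicate 2, Erp27, Tmed6 and Tmed11 are lowest there, Derl3 is below both controls in all 4 injured libraries, and Xbp1 is highest in both treated libraries.

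TP against Control addressed the effect of crush injury, and no gene of the machinery passed. With limma on log2(TPM + 0.5) and Benjamini-Hochberg adjustment, 0 of 52 were called, where 0.0523% of 11477 genes were (all higher), and 1 of 52 (Calr) had an unadjusted p below 0.05, against 4.06% of all genes. The lowest adjusted p was 0.555. The difference was above 0 for 45 genes and below 0 for 7, and the median was 1.32, against 1.5 over all genes. Above 0 were 24 genes with TPM rescaled without the enzymes, where the median of all genes was 0.38, and 13 under median-of-ratios scaling and under quantile normalization, where it was 0.02 and -0.02. By class the median was 1.54 for chaperones and isomerases, 1.31 for translocon and signal peptidase, 1.43 for transport, and 0.71 for degradation and sensors. Both TP libraries were above both controls for 25 of 52 genes (48.1%), against 23.1% of all genes, and below them for 2, Tmed6 and Derl3, against 1.09%. With enzymes taken out the count was 6 above, against 9.39%, and 12 below (23.1%), against 9.13%. The size of these differences depended on TP replicate 2. Without it the median difference was 0.26, against 0.00 over all genes, and 0 of 52 were called, where 0.174% of all genes were. With either TP library left out, the TP group is 1 library, assumed to vary like the other groups, so the calls describe that library. Without TP replicate 1, 46 of 52 were called (88.5%), 43 higher and 3 lower, and 93.3% of all genes were, 91.5% higher and 1.78% lower.

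TP+hucMSC-Exs against TP addressed the effect of exosomes on injured tissue, and it shares the TP libraries with the first comparison. Of the 52 genes 0 were called with limma, where 0.0697% of all genes were (0.0523% higher and 0.0174% lower), 0 had an unadjusted p below 0.05, against 1.32% of all genes, and the lowest adjusted p was 1. The median difference was -0.57, against -0.38 over all genes, with 45 genes below 0 and 7 above. The 7 were Xbp1, Erp27, Derl3, Tmed6, Ern1, Dnajb9 and Sel1l. The number above 0 was 8 with TPM rescaled without the enzymes, 12 under median-of-ratios scaling and 18 under quantile normalization. The median of all genes was -0.14, -0.02 and -0.04 there. Both treated libraries were above both TP libraries for 3 genes, Xbp1, Derl3 and Sel1l, against 5.09% of all genes (5.77% of the 52), and below them for 2, Creld2 and Sec11c, against 1.62%. On the non-enzyme scale 22 of 52 were lower in both treated libraries (42.3%), against 10.4% of all genes, and 11 of these 22 belonged to the translocon and signal peptidase class. The sign of the median turned with TP replicate 2. Without that library it was 0.55, against 1.10 over all genes, with 47 of 52 genes above 0 and 0 called, where 1.91% of all genes were. Without TP replicate 1, with the spread again taken from the other groups, 3 genes were called higher and 41 lower, where 83.1% of all genes were called, 3.62% higher and 79.5% lower. Leaving out TP replicate 2 with median-of-ratios scaling as well, an alternative chosen after seeing the data, gave 50 of 52 below 0. The median was then -0.9, against 0.01 over all genes.

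TP+hucMSC-Exs against Control set treated injured pancreas beside uninjured pancreas, and it shares libraries with both others. Again 0 of 52 genes were called with limma, where 0.209% of all genes were, 0 had an unadjusted p below 0.05, against 2.95% of all genes, and the lowest adjusted p was 0.8. The difference was above 0 for 47 of 52, with a median of 0.72 against 1.09 over all genes. Both treated libraries were above both controls for 45 of 52 (86.5%), a share near the 86.9% of all genes. They were below both controls for 5 of 52 (9.62%), against 1.63% of all genes, namely Ssr4, Tmed6, Tmed11, Herpud1 and Derl3.

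The direction of this comparison depended on the scale. Below 0 were 42 of 52 genes with TPM rescaled without the digestive enzymes, 46 under median-of-ratios scaling and 45 under quantile normalization, against 5 on TPM. The median of all genes under these 3 scalings was 0.24, 0.0 and -0.07. On the non-enzyme scale 40 of 52 were below both controls (76.9%), against 18.6% of all genes, and 6 were above, against 40.8%. Those 6 were Calr, Pdia3, Pdia4, Sec11a, Kdelr2 and Kdelr3, which were 1.22-fold (Pdia3) to 1.83-fold (Kdelr3) of the control mean. Relative to the median gene of the TPM scale, the lowest were Derl3 at -1.65, Herpud1 at -1.57, Tmed6 at -1.46, Tmed11 at -1.42 and Ssr4 at -1.21, and the highest were Kdelr3 at 0.90 and Calr at 0.69. Without TP replicate 2, which enters this comparison only through the pooled spread, 24 of 52 genes were called, all higher (46.2%), where 52.4% of all genes were (51.9% higher and 0.505% lower). A fit of these 4 libraries alone called 24 as well, where 52.8% of all genes were called (52.3% higher and 0.505% lower), and without TP replicate 1 it was 23, against 52.5% (52.1% higher and 0.479% lower). Without TP replicate 2 and under median-of-ratios scaling, 1 was called, Derl3, at -1.96 ± 0.17 (log2 fold change with SE, limma adjusted p = 0.0476), where 1.39% of all genes were (1.17% higher and 0.218% lower).

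**Figure D4:**
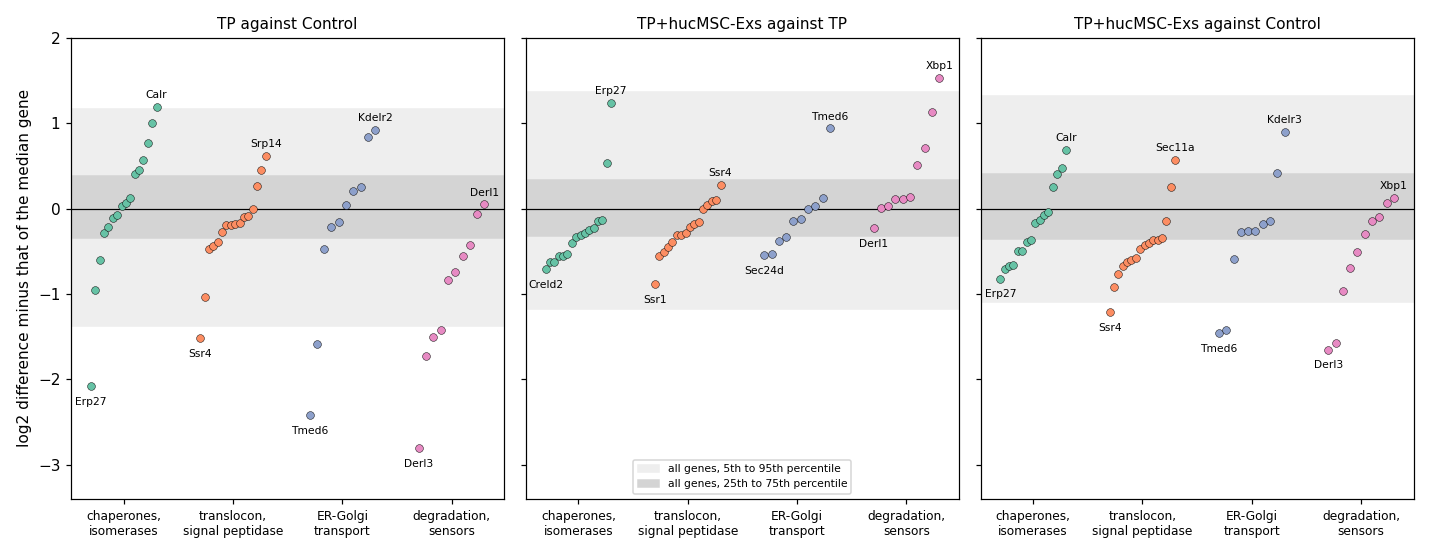
Log2 difference of each of the 52 genes minus that of the median gene, by class, in the 3 comparisons; grey bands hold 50% and 90% of 11477 genes, and the lowest and highest gene of each class is named. Derl3 (-2.80), Tmed6 (-2.42) and Erp27 (-2.08) are the lowest genes of the left panel, and Xbp1 (1.53) is the highest of the middle one. Without TP replicate 2 these values are -1.63 for Derl3, -0.08 for Tmed6, 0.41 for Erp27 and 0.29 for Xbp1.

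The median of other genes of the same pathway lay close to the median gene. Of 113 further folding, glycosylation, targeting, transport and degradation genes that passed the filter, 0 were called in any of the 3 comparisons with limma, and 1 (Ckap4, TP against Control), 0 and 0 had an unadjusted p below 0.05. Their median log2 difference relative to the median gene was 0.01 for crush alone and -0.06 with exosomes, both against the controls, and -0.08 between the injured groups. Ckap4, which shapes rough ER sheets, stood at 1.11 and 1.66 TPM in the controls, 2.59 and 111 TPM after crush alone, and 8.16 and 10.2 TPM with exosomes. Creb3, a membrane-bound transcription factor of the ER, stood at 3.06 and 3.91 TPM, at 4.0 and 54.4 TPM, and at 16.8 and 22.8 TPM. Eif2ak3, which encodes the sensor PERK, had the smallest p among the degradation and sensor genes for TP+hucMSC-Exs against TP. It stood at 4.37 and 7.35 TPM in the controls, 9.46 and 11.3 TPM after crush alone, and 25.1 and 31.96 TPM with exosomes, a log2 fold change of 1.41 ± 1.42 (SE, limma adjusted p = 1). Both treated libraries were above all 4 others. Of the 113 genes, 1 had both treated libraries above both TP libraries, against 5.09% of all genes, and 3 had them below, against 1.62%. Both TP libraries were above both controls for 43 of the 113 on TPM, against 23.1% of all genes. Both treated libraries were above both controls for 109, against 86.9%. In neither of these comparisons with the controls did a gene of the 113 lie below both controls.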

How the data were processed

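RNA sequencing of 6 rat pancreas libraries was analysed from the deposited table of TPM values, made by the authors with 1 column per library. The deposited gene lengths, in bases, were read and entered no test. Total RNA went into a SMARTer library kit for mRNA, per the labels' protocols. How reads were aligned and TPM computed is not stated there. Mouse builds are named in the submitters' processing notes, while 32883 genes carry rat Ensembl identifiers, and no coordinates of the table were used. Group mean columns, equal to the library means, were left aside. The TP columns, whose names include an unexplained number, were assigned by group name and replicate.

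Genes with a mean of at least 1 TPM over the 6 libraries (11477) were transformed to log2(TPM + 0.5). The same genes were kept when a library was left out. Log2 fold changes understate the change of low genes. One model over the 6 libraries and 3 groups was fitted in limma 3.58.1 (R 4.3.3) using a variance trend, 3 residual degrees of freedom, and Benjamini-Hochberg adjustment over all genes at 0.05. P-values rest on the spread between 2 libraries per group, pooled over groups. Same-numbered libraries of different groups are not paired by the labels. Tested on simulated data of this size, the fit missed most of the differences put in, so a count of 0 does not show that genes did not differ. The genes, the lists and the tests were chosen with earlier results of these data known. All 52 genes of the list are named. Of other pathway genes, the gene of smallest p per class and comparison could be named, and not all are. Digestive enzymes and cell type markers are lists of known markers. Alternatives were other pseudocounts (0.1, 1), filters and scalings, a fit without the trend, only the groups compared, a replicate block, and each library left out.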

Additional observations from a re-analysis of the deposited data

How the results depend on the processing

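With 2 libraries per group and unknown depth, calls depended on TP replicate 2 and on the scale. The number of genes called over all 11477, 6 for crush alone against control, 8 between the injured groups and 24 for treated against control, was 0, 0 and 0 when no filter was set. It was 2, 0 and 4 on the non-enzyme scale, 0, 2 and 2 under median-of-ratios scaling, 0, 0 and 0 under quantile normalization, and 0, 1 and 6056 with only the groups compared. At an unadjusted p below 0.05, limma counted 160, 315 and 368 without the filter, and 642, 983 and 1100 with quantile normalization. The number called after adjustment was 14 for crush alone against control at a pseudocount of 0.1, and 12 for treated against control at a pseudocount of 1. With the replicate block, which the labels do not support as a pairing, it was 10, 22 and 35, and 0 of the 52 genes were called. The check of pairing gave correlations of same-numbered deviations of 0.279, 0.08 and 0.135. Dropping TP replicate 2 under median-of-ratios scaling, chosen after seeing the data, gave 17, 19 and 159. Leaving out 1 library gave 0 to 10706, 0 to 9537 and 1 to 6031.

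Of the 52 genes, 0 were called in each comparison, 0 to 46, 0 to 44 and 0 to 24 with 1 library left out, 24 for treated against control with only the groups compared, and 1 there when TP replicate 2 was dropped under median-of-ratios scaling. Their median relative to all genes was -0.18, -0.19 and -0.37. It was -0.41, -0.28 and -0.72 both on the non-enzyme scale and under median-of-ratios scaling, -0.34, -0.14 and -0.50 under quantile normalization, -0.36, -0.26 and -0.64 at a pseudocount of 0.1, -0.02, -0.17 and -0.19 at a pseudocount of 1, and -0.33, -0.27 and -0.61 with a mean of at least 5 TPM. It was 0.21 and 0.05 for crush alone and for treated against control without the filter, 0.24 and -0.90 for crush alone against control and between the injured groups when TP replicate 2 was dropped under median-of-ratios scaling, and -0.61 to 0.25, -0.54 to 0.14 and -0.53 to -0.25 with 1 library left out. The summed members, 2336, 6053 and 3417 TPM, became 15513, 12856 and 9723 on the non-enzyme scale. Of 2646 values of single genes under alternatives, 2253 moved by less than the replicate SD and 393 by more. The cause was not tested. The 2253 include values that could not move, so they do not measure how stable the results are. A difference is unchanged without the trend, with only the groups compared, with the replicate block, or without a library of the group not compared. The SD also includes the gap between the TP libraries.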
